A study of Mus musculus with 28 samples.

Results

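The levels of 10 chemokine genes were followed in the hippocampal RNA of 2 mouse cohorts: Cxcl10, Cxcl9, Cxcl16, Ccl2, Ccl12, Ccl3, Ccl4, Ccl5, Ccl6 and Ccl9. They are the rows of the deposited count tables whose Ensembl gene ID maps to these 10 symbols, among 55487 gene IDs in each table. Polyadenylated RNA was sequenced from whole hippocampus of mice 9 months of age, taken after behavioural testing. The Ripk1 cohort held Ripk1 D138N 5xFAD, 5xFAD, Ripk1 D138N and WT mice, and the Zbp1 cohort held Zbp1 KO 5xFAD, 5xFAD, Zbp1 KO and WT mice, with 3 libraries per genotype and 24 in all. Ripk1 D138N is a homozygous substitution that inactivates the kinase domain of RIPK1, and Zbp1 KO is a homozygous null allele, written Zbp1-/- in the labels. Each cohort had WT animals of its own line. 5xFAD mice carry human transgenes with familial Alzheimer's disease mutations under the neuronal Thy1 promoter and deposit amyloid. Another 4 libraries, 1 each, came from RNA immunoprecipitated with ZBP1 and from its input, in 5xFAD and WT hippocampus.

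Chemokines are small secreted proteins that attract leukocytes through receptors coupled to G proteins. CXCL9 and CXCL10 are induced by interferons and bind CXCR3 on T and NK cells. CXCL16 is made as a membrane protein that ADAM10 and ADAM17 can shed, and it binds CXCR6. CCL2 and the mouse chemokine CCL12 bind CCR2 on monocytes, CCL3, CCL4 and CCL5 are inflammatory chemokines that attract monocytes and T cells, and CCL6 and CCL9, both described in rodents, bind CCR1. In brain with amyloid, microglia around plaques are a known source of several of them. RIPK1 is a kinase of death receptor and Toll-like receptor signalling that can drive both cell death and inflammatory gene expression, and ZBP1 is a sensor of Z-form nucleic acids that binds RIPK1 and RIPK3.

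The RefSeq annotation places 8 of the 10 genes on chromosome 11, and Cxcl10 and Cxcl9 on chromosome 5. Promoter sequence was at hand for 6 of them. The 250 bases before the start are shown for Cxcl10 and Ccl12, the 2 genes called lower in Ripk1 D138N 5xFAD than in 5xFAD, and for Ccl3 and Ccl6, which were called higher in 5xFAD than in WT in both cohorts and not called between those 5xFAD groups. All are RefSeq sequence of build GRCm38.p6, written 5′ to 3′ on the strand of the gene, and capitals mark the motif matches described next. Cxcl10 is at chr5:92348890-92349139 on the minus strand, Ccl12 at chr11:82101595-82101844 on the plus strand, Ccl3 at chr11:83649379-83649628 on the minus strand and Ccl6 at chr11:83593088-83593337 on the minus strand.
Cxcl10: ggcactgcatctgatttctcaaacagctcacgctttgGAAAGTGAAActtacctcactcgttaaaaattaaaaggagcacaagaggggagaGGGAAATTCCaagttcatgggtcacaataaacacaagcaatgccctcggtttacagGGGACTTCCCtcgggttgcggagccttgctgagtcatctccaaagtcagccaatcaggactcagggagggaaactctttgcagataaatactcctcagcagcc
Ccl12: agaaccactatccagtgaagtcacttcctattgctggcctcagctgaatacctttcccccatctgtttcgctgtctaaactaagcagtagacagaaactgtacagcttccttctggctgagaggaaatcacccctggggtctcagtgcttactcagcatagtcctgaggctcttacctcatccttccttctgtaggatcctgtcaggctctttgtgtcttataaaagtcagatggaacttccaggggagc
Ccl3: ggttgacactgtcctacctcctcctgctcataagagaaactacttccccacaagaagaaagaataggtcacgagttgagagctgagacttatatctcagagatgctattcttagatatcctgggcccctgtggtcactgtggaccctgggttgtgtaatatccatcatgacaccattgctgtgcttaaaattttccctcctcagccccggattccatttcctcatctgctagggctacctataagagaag
Ccl6: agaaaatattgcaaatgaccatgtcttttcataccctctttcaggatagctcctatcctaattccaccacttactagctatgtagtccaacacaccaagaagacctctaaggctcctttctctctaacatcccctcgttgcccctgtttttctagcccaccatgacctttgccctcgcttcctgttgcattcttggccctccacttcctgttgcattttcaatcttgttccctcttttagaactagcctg

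The interferon-stimulated response element was searched as GAAA, any 2 bases and GAAA again, and the NF-kB element by its 10-base consensus, both on either strand. The first stood in 2.98% and the second in 3.90% of 32851 RefSeq promoters of this length. The Cxcl10 window held 1 match to the interferon element, GAAAGTGAAA, 213 to 204 bases before the start. It also held 2 matches to the NF-kB consensus, GGGAAATTCC at 159 to 150 bases and GGGACTTCCC at 103 to 94 bases, and the 3 matches do not overlap. Ccl9 had 1 NF-kB match on the opposite strand, 35 to 26 bases before the start. Cxcl9, Ccl3, Ccl6 and Ccl12 had neither set of letters in the window. The matches describe sequence only, since no binding was measured.

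Library totals ran from 16624325 to 44801371 counts in the Ripk1 cohort and from 8362348 (WT 1) to 34640479 counts in the Zbp1 cohort, where the next lowest library had 27144481. The chemokines are rare transcripts at these depths, with at most 992 counts in any library and 0 counts in some, so counting error is part of the spread of each. In the Zbp1 cohort 2 libraries stood furthest from the others of their genotype: chi-square per degree of freedom over genes was 68.1 and 78.1 for 5xFAD 2 against its fellows and 24.6 and 40.6 for WT 2. The count of chemokines called there is also given without each of WT 1, WT 2 and 5xFAD 2. In the Ripk1 cohort Ripk1 D138N 5xFAD 2 stood apart too, at 30.8 and 33.7 against its fellows, which gave 8.74 between them. Without it Ripk1 D138N 5xFAD against 5xFAD called 2 chemokines and 673 genes, in place of 2 and 78 with all libraries. Zbp1, the gene deleted in the Zbp1 cohort, was at 0.298 to 0.351 CPM (counts scaled to a common library size) in Zbp1 KO 5xFAD, against 1.79 to 3.58 CPM in 5xFAD, and at 0 to 0.319 CPM in Zbp1 KO, against 0 to 0.383 CPM in WT, where the level is too low to check the label. All 8 hippocampal neuron markers were counted in every genotype, and their summed level was 3482 to 4535 CPM over the 24 libraries. Choroid plexus markers, which come with neighbouring tissue, ran from 48.6 to 4809 CPM, with a wide range in every genotype. Of the 10 genes 6 overlap another gene in the RefSeq annotation, Ccl3 and Ccl4 each other among them, and close paralogs such as Ccl2 and Ccl12 share sequence. Neither strand use nor the handling of shared reads is stated in the labels, so counts may have been split between such pairs.

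All 10 chemokines were higher in 5xFAD than in WT hippocampus in the Ripk1 cohort, by 2.49-fold for Ccl9 up to 64.8-fold for Cxcl10 and 66.2-fold for Cxcl9, the last a fitted value on 4 WT counts. Every one was called, meaning a Benjamini-Hochberg adjusted p under 0.05 over all genes in edgeR's quasi-likelihood test, against a background of 8.11% of 21376 tested genes called higher. The 3 CPM values of 5xFAD lay above the 3 of WT for all 10, as for 17.7% of all genes. Ccl2 and Cxcl9 passed the filter on low counts only with the 5xFAD libraries, so their higher level there is in part a matter of selection. The median log2 fold change was 3.90 over the 10 genes and 0.018 over all genes. The summed level of the 10 was 57.4 to 76.2 CPM in 5xFAD and 5.85 to 6.12 CPM in WT. In whole tissue, more cells of a type and more RNA per cell cannot be told apart, nor can fewer cells and less RNA per cell.

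Within 5xFAD the kinase-inactive Ripk1 allele went with lower levels of part of this group. Cxcl10 and Ccl12 were called lower in Ripk1 D138N 5xFAD than in 5xFAD, 2 of 10 against a background of 0.342% of genes called lower. All 10 log2 fold changes were negative, with a median of -1.38 against -0.0076 over all genes, and 6 were below an unadjusted p of 0.05. How many of all genes were below that p was not counted for comparisons within a cohort, here or below. Such counts of chemokines therefore have no background to be read against. For 6 of 10 (Cxcl10, Cxcl9, Cxcl16, Ccl2, Ccl4 and Ccl12) all 3 Ripk1 D138N 5xFAD values lay below all 3 of 5xFAD, as for 7.73% of all genes. Since Ccl2 and Cxcl9 were tested only because of their 5xFAD levels, their lower levels against 5xFAD follow in part from that selection. They give no support of their own to these counts. The summed level of the 10 was 32.04 to 46.4 CPM in Ripk1 D138N 5xFAD, against 57.4 to 76.2 CPM in 5xFAD.

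**Figure D1:**
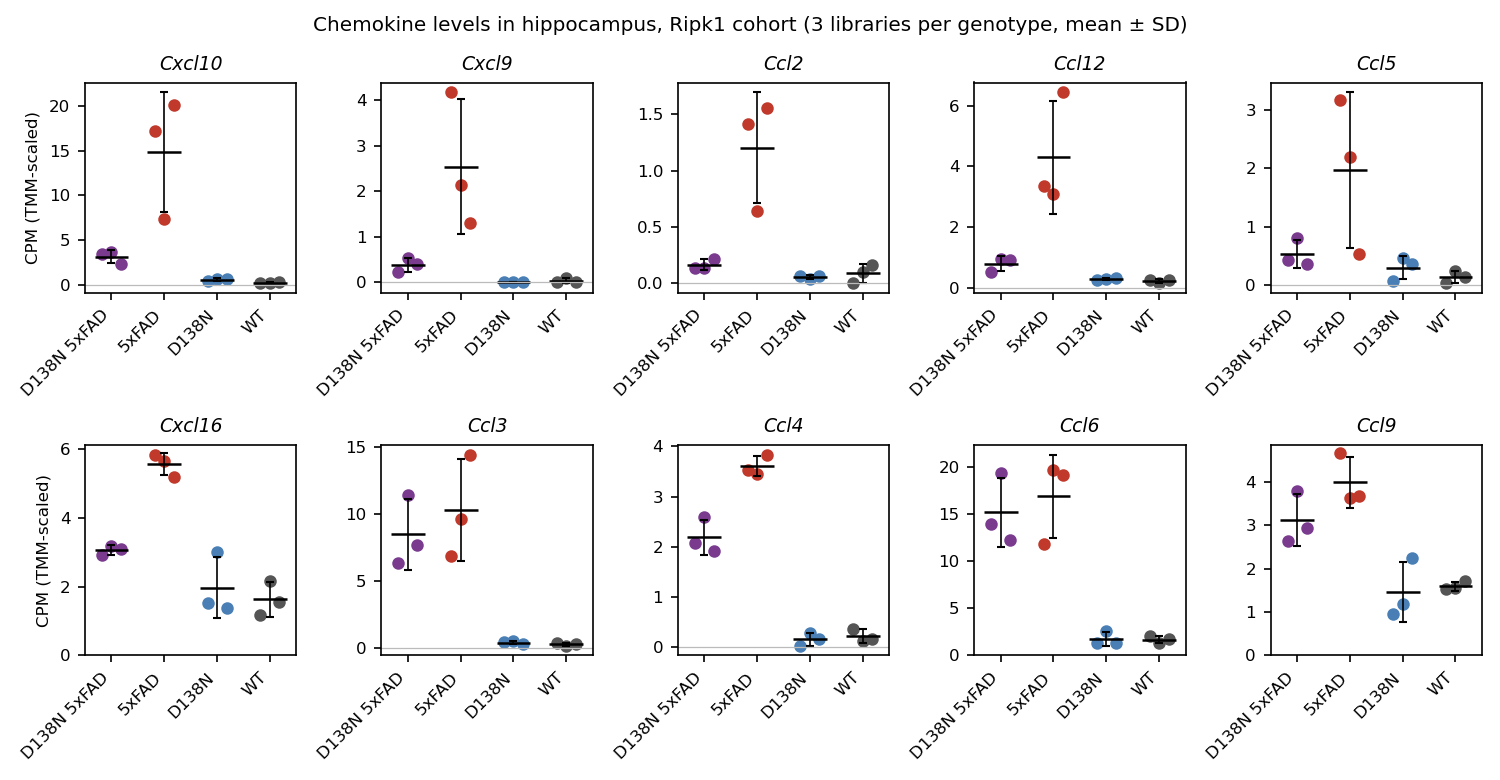
Levels of the 10 chemokines in the Ripk1 cohort, in CPM on TMM-scaled library sizes on the vertical axis and genotype on the horizontal axis. Each point is a library, and bars give the mean and SD of 3 libraries. The Ripk1 D138N 5xFAD points lie below those of 5xFAD for Cxcl10, Cxcl9, Ccl2, Ccl12, Cxcl16 and Ccl4 (Cxcl10 at 2.31 to 3.69 CPM, against 7.32 to 20.1 CPM in 5xFAD), while in the panels of Ccl5, Ccl3, Ccl6 and Ccl9 the 2 carrier genotypes overlap.

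Of the CXCR3 ligands, Cxcl10 had 3.43, 3.69 and 2.31 CPM in Ripk1 D138N 5xFAD, against 17.2, 7.32 and 20.1 CPM in 5xFAD. It had 0.364, 0.629 and 0.663 CPM in Ripk1 D138N, against 0.161, 0.241 and 0.276 CPM in WT. The 4 genotypes did not overlap anywhere, and 5xFAD 2 was the lowest of its group. Cxcl10 rose in 5xFAD against WT by 6.02 ± 0.43 on the log2 scale (SE; edgeR, adjusted p = 8.08e-07). Against 5xFAD, it fell by 2.25 ± 0.33 in Ripk1 D138N 5xFAD (adjusted p = 0.00797), which is 4.74-fold. Its rise in Ripk1 D138N 5xFAD against Ripk1 D138N was 2.50 ± 0.39 (edgeR, adjusted p = 0.00156). Without the transgenes the Ripk1 D138N difference from WT was 1.27 ± 0.48 and was not called (edgeR, adjusted p = 1).

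Cxcl9 had 0.227, 0.537 and 0.395 CPM in Ripk1 D138N 5xFAD, against 4.18, 2.13 and 1.31 CPM in 5xFAD. No count at all was found in the 3 Ripk1 D138N libraries, and 4 counts, all in WT 2, among the WT libraries. The 2 carrier genotypes did not overlap, yet the difference of -2.71 ± 0.67 was not called (edgeR, adjusted p = 0.187). DESeq2 called it (-2.72, adjusted p = 0.00245). Cxcl9 rose in 5xFAD against WT by 6.05 ± 0.88 (edgeR, adjusted p = 0.000998). With so few WT counts the size of that rise is loose, and it ran from 5.51 to 9.36 over the alternatives, each of which called it. With 44 counts in Ripk1 D138N 5xFAD against 0 in Ripk1 D138N, its level there was at least 10.9-fold higher, taking 3 counts over the group of 3 libraries as the floor (edgeR, adjusted p = 0.0283). That call was lost in 5 of 6 fits with 1 library left out (adjusted p up to 0.0939).

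Of the CCR2 ligands, Ccl12 had 0.523, 0.939 and 0.922 CPM in Ripk1 D138N 5xFAD, against 3.36, 3.09 and 6.45 CPM in 5xFAD. The levels were 0.265, 0.279 and 0.331 CPM in Ripk1 D138N, against 0.268, 0.145 and 0.248 CPM in WT. Every carrier library was above every library without the transgenes, and the 2 carrier genotypes did not overlap. Ccl12 rose in 5xFAD against WT by 4.28 ± 0.41 (edgeR, adjusted p = 1.19e-05) and, against 5xFAD, fell by 2.45 ± 0.36 in Ripk1 D138N 5xFAD (adjusted p = 0.00797), which is 5.45-fold. Ripk1 D138N 5xFAD against Ripk1 D138N gave 1.43 ± 0.41 and no call (edgeR, adjusted p = 0.0896). Ccl2 had 0.136, 0.134 and 0.220 CPM in Ripk1 D138N 5xFAD, against 1.41, 0.640 and 1.56 CPM in 5xFAD. Those are 4 to 10 counts per library, against 18 to 50 in 5xFAD. Ccl2 rose in 5xFAD against WT by 3.73 ± 0.71 (edgeR, adjusted p = 0.00365), and its difference of -2.83 ± 0.66 between Ripk1 D138N 5xFAD and 5xFAD was not called (adjusted p = 0.134), although DESeq2 called it (adjusted p = 0.00948).

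The calls of Cxcl10 and Ccl12 in Ripk1 D138N 5xFAD against 5xFAD, at -2.25 and -2.45, were lost without either of 2 libraries. Without Ripk1 D138N 5xFAD 1 the log2 differences were -2.32 and -2.21 (edgeR, adjusted p = 0.0662 and 0.0687), and without Ripk1 D138N 5xFAD 3 they were -2.06 and -2.58 (adjusted p = 0.0759 and 0.0546). Over all genes those 2 fits called 20 and 14 genes, in place of 78 with all libraries. Leaving out any of the other 4 libraries kept both calls, with 43 to 673 genes called. Thy1, whose promoter drives the transgenes, was at 1723, 2251 and 1612 CPM in Ripk1 D138N 5xFAD, against 2740, 2295 and 2389 CPM in 5xFAD. With the Thy1 level as a covariate among carriers Cxcl10 was at -1.64 ± 0.55 and Ccl12 at -2.36 ± 0.61, and no gene of the table was called (edgeR, adjusted p = 1 for both).

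None of the inflammatory chemokines Ccl3, Ccl4 and Ccl5 was called between Ripk1 D138N 5xFAD and 5xFAD. Ccl3 had 6.34, 11.4 and 7.69 CPM in Ripk1 D138N 5xFAD, against 6.90, 9.63 and 14.4 CPM in 5xFAD. It had 0.464, 0.489 and 0.265 CPM in Ripk1 D138N, against 0.349, 0.169 and 0.276 CPM in WT. The carrier genotypes overlapped, as did the others, while carriers stood well above non-carriers. With the transgenes Ccl3 rose by 5.29 ± 0.38 over WT (edgeR, adjusted p = 8.42e-07) and by 4.37 ± 0.37 over Ripk1 D138N (adjusted p = 7.04e-06). Between Ripk1 D138N 5xFAD and 5xFAD it differed by -0.29 ± 0.29 (edgeR, adjusted p = 0.720). Ccl4 had 2.07, 2.58 and 1.91 CPM in Ripk1 D138N 5xFAD, against 3.54, 3.45 and 3.83 CPM in 5xFAD. These did not overlap, and the difference of -0.73 ± 0.37 was not called (edgeR, adjusted p = 0.453). Ccl4 rose by 4.02 ± 0.45 over WT in 5xFAD and by 3.76 ± 0.48 over Ripk1 D138N in Ripk1 D138N 5xFAD (edgeR, adjusted p = 5.49e-05 and 0.000369).

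Ccl5, which T cells also make, was the most uneven in 5xFAD, with 0.432, 0.805 and 0.351 CPM in Ripk1 D138N 5xFAD and 3.18, 2.203 and 0.530 CPM in 5xFAD. The third 5xFAD library lay inside the range of Ripk1 D138N 5xFAD, while the same library had the highest Cxcl10, Ccl2, Ccl3, Ccl4 and Ccl12 of the group. Ccl5 rose in 5xFAD against WT by 3.78 ± 0.80 (edgeR, adjusted p = 0.00672). It differed by -1.89 ± 0.70 between Ripk1 D138N 5xFAD and 5xFAD (edgeR, adjusted p = 0.328) and by 0.82 ± 0.77 between Ripk1 D138N 5xFAD and Ripk1 D138N (adjusted p = 0.720).

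Ccl6 and Ccl9 were not called between Ripk1 D138N 5xFAD and 5xFAD either. Ccl6, at the highest CPM of the 10 in 5xFAD beside Cxcl10 (a level that gene length was not used to adjust), had 13.9, 19.3 and 12.2 CPM in Ripk1 D138N 5xFAD, against 11.7, 19.7 and 19.1 CPM in 5xFAD. It had 1.22, 2.52 and 1.26 CPM in Ripk1 D138N, against 1.96, 1.205 and 1.60 CPM in WT. Carriers did not overlap with non-carriers, and the mutant overlapped its control on both backgrounds. With the transgenes Ccl6 rose by 3.41 ± 0.31 over WT (edgeR, adjusted p = 7.09e-06) and by 3.18 ± 0.31 over Ripk1 D138N (adjusted p = 2.72e-05). It differed by -0.16 ± 0.27 between Ripk1 D138N 5xFAD and 5xFAD (adjusted p = 0.853). Ccl9 averaged 3.12 ± 0.598 CPM in Ripk1 D138N 5xFAD, against 3.99 ± 0.581 CPM in 5xFAD (SD, n = 3 each), and rose in 5xFAD against WT by 1.32 ± 0.29 (edgeR, adjusted p = 0.00771). Ripk1 D138N 5xFAD against Ripk1 D138N gave 1.08 ± 0.29 for Ccl9 and no call (edgeR, adjusted p = 0.0619).

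Cxcl16 had 2.91, 3.19 and 3.10 CPM in Ripk1 D138N 5xFAD, against 5.84, 5.65 and 5.21 CPM in 5xFAD. It had 1.52, 3.004 and 1.39 CPM in Ripk1 D138N, against 1.18, 2.17 and 1.54 CPM in WT. The carrier genotypes did not overlap, and Ripk1 D138N 2 reached into the range of Ripk1 D138N 5xFAD. Cxcl16 rose by 1.76 ± 0.29 over WT in 5xFAD (edgeR, adjusted p = 0.00138). Ripk1 D138N 5xFAD differed by -0.86 ± 0.28 from 5xFAD and by 0.64 ± 0.29 from Ripk1 D138N, with neither called (edgeR, adjusted p = 0.279 and 0.331).

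On the Ripk1 D138N background, Ripk1 D138N 5xFAD against Ripk1 D138N called 5 of 10 higher (Cxcl10, Cxcl9, Ccl3, Ccl4 and Ccl6), against a background of 3.12% of genes. For 8 of 10 the values did not overlap, as for 11.3% of all genes, with Cxcl16 and Ccl5 the exceptions. The median log2 fold change was 1.999 with Cxcl9 as fitted or at its ratio with the floor of 3 counts, against -0.0056 over all genes. Ripk1 D138N against WT called 0 of 10 and 0% of all genes by edgeR, with Cxcl10 alone below an unadjusted p of 0.05 and 0 called by DESeq2. Its Ripk1 D138N values lay above all WT values, as for 3.58% of all genes. Whether the 5xFAD effect depends on the Ripk1 allele was tested as the interaction, the 5xFAD effect on the Ripk1 D138N background minus that on the WT background. It was -3.52 ± 0.58 for Cxcl10 (edgeR, adjusted p = 0.0888) and -2.86 ± 0.58 for Ccl12 (adjusted p = 0.236), so edgeR called 0 of 10, against 0.0281% of genes. An unadjusted p of 0.05 was passed by 4 of 10 (Cxcl10, Cxcl16, Ccl5 and Ccl12), a count without a background over all genes. DESeq2 called Cxcl10 and Ccl12 (adjusted p = 3.92e-06 and 0.00935). Without 5xFAD 2 or without Ripk1 D138N 5xFAD 2, edgeR also called the Cxcl10 interaction (adjusted p = 0.00516 and 0.0472).

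In the Zbp1 cohort part of the group was called higher in 5xFAD. Ccl2 was too low to be tested there, with 0 to 20 counts per library, which left 9. Of these, 5 of 9 were called higher in 5xFAD than in WT (Cxcl10, Cxcl9, Ccl3, Ccl4 and Ccl6), against a background of 3% of 21274 tested genes. For 7 of 9 the 5xFAD values lay above all WT values, as for 8.28% of all genes, and the median log2 fold change was 3.30 against -0.0044 over all genes. Without WT 1, WT 2 or 5xFAD 2 the number called was 5, 5 and 6. Without WT 3 it was 3, with Ccl3 (2.97, adjusted p = 0.0566) and Ccl4 (3.47, adjusted p = 0.168) lost in edgeR, and Ccl4 was also lost without 5xFAD 1 or WT 1 (adjusted p = 0.158 and 0.109).

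**Figure D2:**
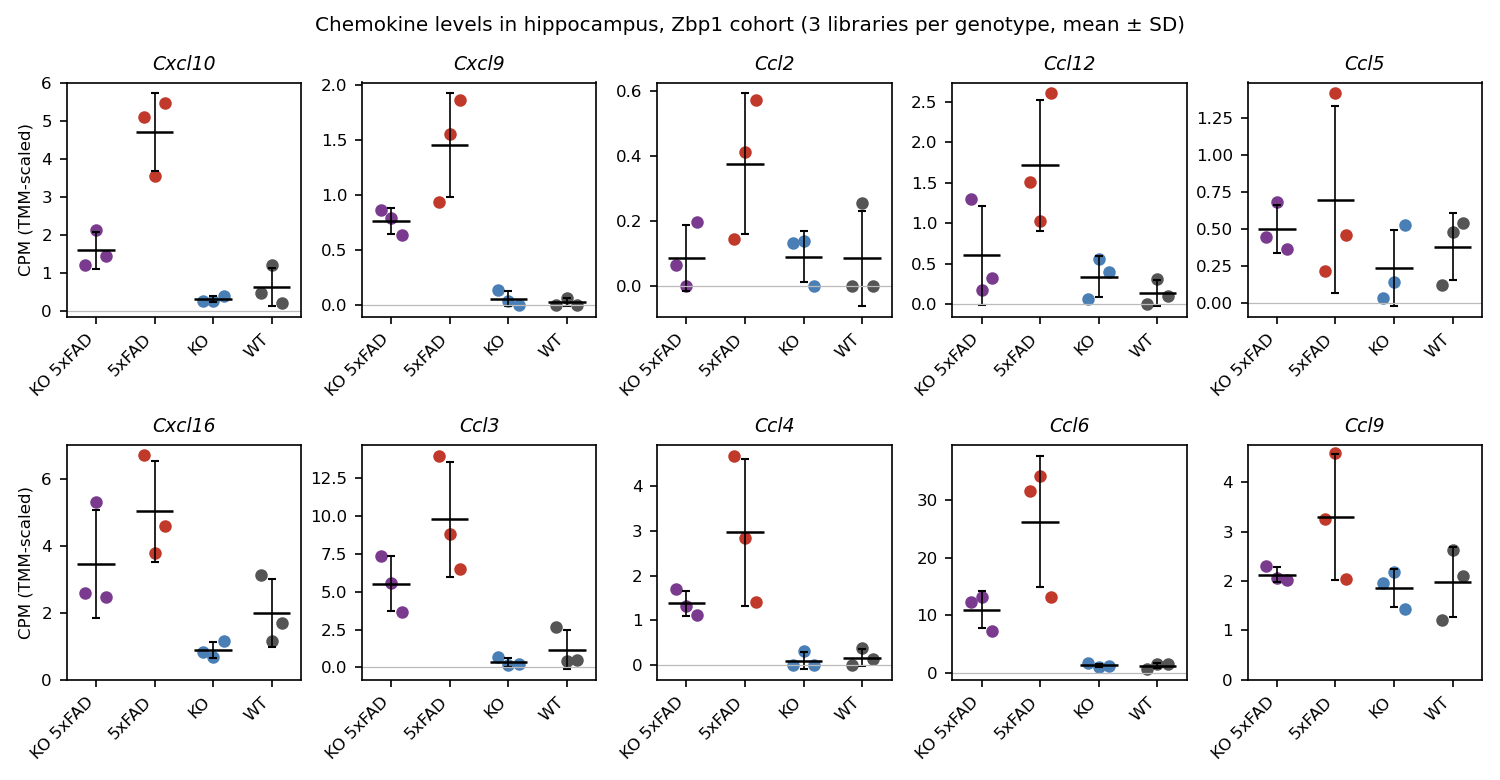
Levels of the 10 chemokines in the Zbp1 cohort, in CPM on TMM-scaled library sizes on the vertical axis and genotype on the horizontal axis, with 1 point per library and the mean and SD of 3 libraries. Zbp1 KO 5xFAD lay below 5xFAD without overlap for Cxcl10 (1.21 to 2.14 CPM, against 3.55 to 5.47 CPM in 5xFAD) and Cxcl9, and overlapped 5xFAD for the others tested.

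Zbp1 KO 5xFAD against 5xFAD called 0 of 9 by edgeR, as 0% of all genes, and 1 by DESeq2 (Ccl6). Below an unadjusted p of 0.05 were 2 of 9 (Cxcl10 and Ccl6), again without a background over all genes. Without 5xFAD 2 the edgeR count was also 0. All 9 log2 fold changes were negative, with a median of -0.93 against -0.011 over all genes. For 2 of 9, Cxcl10 and Cxcl9, the values did not overlap, as for 7.89% of all genes. The summed level of the 10 was 19.6 to 31.3 CPM in Zbp1 KO 5xFAD, against 38.7 to 68.1 CPM in 5xFAD.

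Cxcl10 had 1.21, 2.14 and 1.46 CPM in Zbp1 KO 5xFAD, against 5.10, 3.55 and 5.47 CPM in 5xFAD. It had 0.265, 0.281 and 0.406 CPM in Zbp1 KO, against 0.482, 1.21 and 0.234 CPM in WT. WT 2 came to the level of the lowest Zbp1 KO 5xFAD library, and 5xFAD stood above all others. Cxcl10 rose in 5xFAD against WT by 2.80 ± 0.50 (edgeR, adjusted p = 0.00423), and Zbp1 KO 5xFAD differed from 5xFAD by -1.56 ± 0.45 (adjusted p = 0.408). Cxcl9 had 0.860, 0.783 and 0.629 CPM in Zbp1 KO 5xFAD, against 0.933, 1.55 and 1.86 CPM in 5xFAD. With 136 counts in 5xFAD and 2 in WT its ratio there was 51.5, with a 95% interval for counting error of 14 to 430 (edgeR, adjusted p = 0.00465).

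Ccl6 had 12.4, 13.2 and 7.35 CPM in Zbp1 KO 5xFAD, against 31.5, 34.2 and 13.2 CPM in 5xFAD. It had 1.66, 1.09 and 1.25 CPM in Zbp1 KO, against 0.723, 1.501 and 1.54 CPM in WT. The third 5xFAD library lay close to the upper Zbp1 KO 5xFAD libraries and the other two far above. Ccl6 rose in 5xFAD against WT by 4.27 ± 0.39 (edgeR, adjusted p = 2.55e-05). Zbp1 KO 5xFAD differed from 5xFAD by -1.26 ± 0.33 (edgeR, adjusted p = 0.295). DESeq2 called it (-1.25, adjusted p = 0.0232), as did edgeR without 5xFAD 3 (-1.58, adjusted p = 0.0182). Thy1 was at 1583, 1485 and 1468 CPM in Zbp1 KO 5xFAD, against 2159, 2040 and 1462 CPM in 5xFAD, so that 5xFAD 3 was lowest in both Thy1 and Ccl6. With Thy1 as a covariate the Ccl6 difference was -0.39 ± 0.31 (edgeR, adjusted p = 1). Ccl3, Ccl4 and Ccl9 were also lowest of their group in 5xFAD 3, while Cxcl10, Cxcl9, Ccl12 and Ccl2 were highest there. With the covariate Cxcl10, Cxcl9 and Ccl12 were at -1.75 ± 0.57, -1.23 ± 0.84 and -1.72 ± 0.93, against -1.56, -0.93 and -1.49 without it. The differences of Cxcl16, Ccl3, Ccl4, Ccl5 and Ccl9 were smaller with it.

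Ccl3 had 7.36, 5.59 and 3.67 CPM in Zbp1 KO 5xFAD, against 13.998, 8.83 and 6.53 CPM in 5xFAD. It had 0.663, 0.140 and 0.203 CPM in Zbp1 KO, against 2.65, 0.415 and 0.468 CPM in WT, the first WT value coming from 22 counts of the shallow library. Ccl3 rose in 5xFAD against WT by 3.41 ± 0.65 (edgeR, adjusted p = 0.00677) and differed by -0.82 ± 0.54 between Zbp1 KO 5xFAD and 5xFAD (adjusted p = 0.662). Ccl4 had 1.69, 1.32 and 1.13 CPM in Zbp1 KO 5xFAD, against 4.67, 2.83 and 1.40 CPM in 5xFAD. These genotypes overlapped through 5xFAD 3. Ccl4 rose in 5xFAD against WT by 3.77 ± 0.91 (edgeR, adjusted p = 0.0358). It differed by -1.10 ± 0.75 between Zbp1 KO 5xFAD and 5xFAD (edgeR, adjusted p = 0.673).

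Ccl12 had 1.31, 0.178 and 0.331 CPM in Zbp1 KO 5xFAD, against 1.51, 1.03 and 2.61 CPM in 5xFAD. One Zbp1 KO 5xFAD library reached into the 5xFAD range and the other two did not. Ccl12 in 5xFAD differed from WT by 3.30 ± 0.93 (edgeR, adjusted p = 0.0881), and the difference was -1.49 ± 0.81 in Zbp1 KO 5xFAD against 5xFAD (adjusted p = 0.611). Cxcl16, Ccl5 and Ccl9 were not called in 5xFAD against WT either, at 1.417 ± 0.42, 0.75 ± 0.86 and 0.68 ± 0.36 (edgeR, adjusted p = 0.110, 0.843 and 0.495). Ccl12 and Cxcl16 were called there by DESeq2 (adjusted p = 0.00962 and 0.0261) and by edgeR without the low-count filter (adjusted p = 0.000665 and 0.0129). Ccl2 averaged 0.0875 ± 0.101 CPM in Zbp1 KO 5xFAD, against 0.377 ± 0.217 CPM in 5xFAD (SD, n = 3 each).

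Zbp1 KO against WT called 0 of 9 and 0% of all genes by edgeR, with Cxcl16 alone below an unadjusted p of 0.05 and 0 called by DESeq2. On the Zbp1 KO background, Zbp1 KO 5xFAD against Zbp1 KO called 4 of 9 higher, against a background of 1.18% of genes. These were Ccl6 (3.04 ± 0.37), Ccl3 (4.03 ± 0.67), Cxcl16 (1.95 ± 0.43) and Cxcl10 (2.31 ± 0.51), with edgeR adjusted p of 0.000592, 0.00556, 0.0398 and 0.0426. The Cxcl10 and Cxcl16 calls were each lost whichever of the 6 libraries was left out, with adjusted p from 0.0552 to 0.257. For 6 of 9 genes the values did not overlap, as for 10.8% of all genes. The interaction of Zbp1 KO with 5xFAD called 0 of 9 and 0% of all genes by edgeR, and 0 of 9 by DESeq2, with Ccl6 alone below an unadjusted p of 0.05 (-1.23 ± 0.52).

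**Figure D3:**
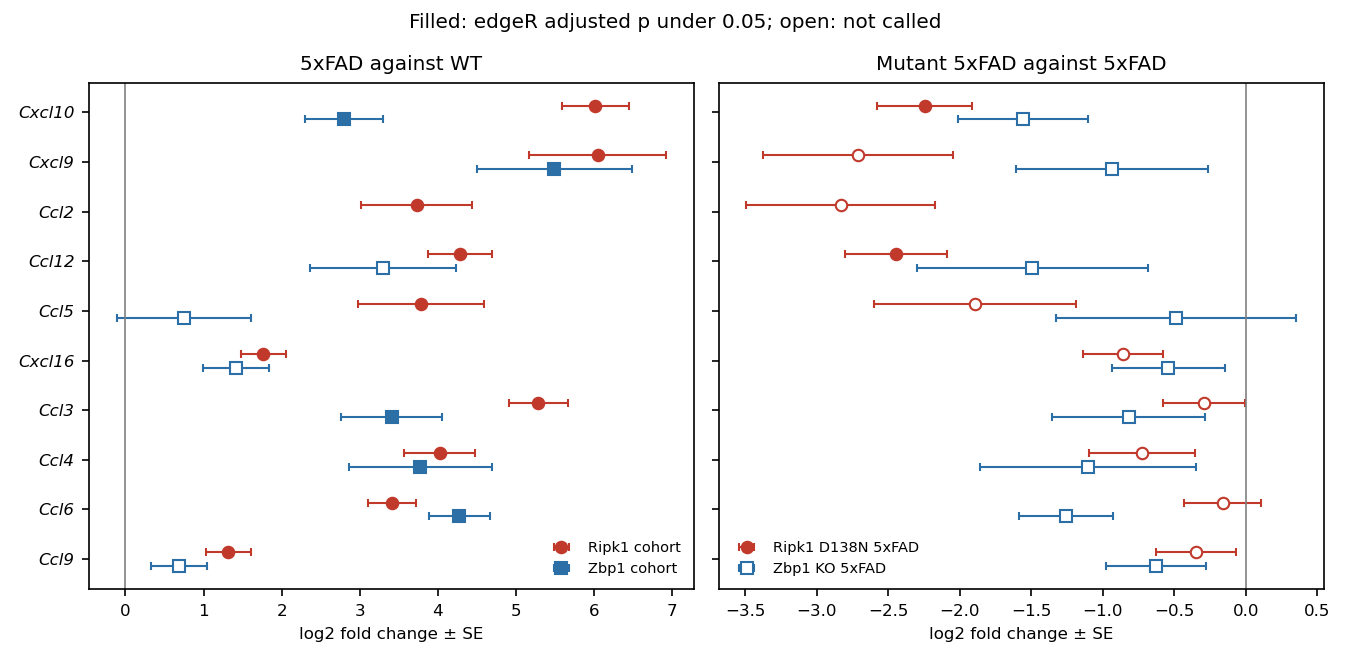
Log2 fold changes with SE (horizontal axis) of the 10 chemokines in 5xFAD against WT (left) and in mutant 5xFAD against 5xFAD (right). Circles show the Ripk1 cohort and squares the Zbp1 cohort, and filled symbols are called by edgeR at an adjusted p under 0.05. In the left panel 10 circles and 5 squares are filled, and in the right panel the circles of Cxcl10 and Ccl12 alone are filled.

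The change with 5xFAD was compared between the cohorts in 1 fit of all 24 libraries. Cxcl10 gave 3.22 ± 0.65, the Ripk1 cohort minus the Zbp1 cohort (edgeR, adjusted p = 0.237). EdgeR called 0 of 10 and 0% of 22565 genes, of which 2063 were below an unadjusted p of 0.05, with 3 of the 10 below it (Cxcl10, Ccl3 and Ccl5), and DESeq2 called Cxcl10 alone (adjusted p = 0.00617). Without the second 5xFAD library of the Zbp1 cohort edgeR called Cxcl10 too (adjusted p = 0.0317). The effect of Ripk1 D138N in 5xFAD minus that of Zbp1 KO in 5xFAD was -0.68 ± 0.55 for Cxcl10, -0.94 ± 0.86 for Ccl12 and 1.11 ± 0.45 for Ccl6. EdgeR and DESeq2 called 0 of 10 in that test, edgeR called 0% of all genes with 1064 below an unadjusted p of 0.05, and of the 10 Ccl6 alone had an unadjusted p under 0.05.

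Of 28 further chemokine genes, 11 were tested in the Ripk1 cohort, and 2 were called higher in 5xFAD than in WT: Cxcl5, a ligand of CXCR2, by 3.11 ± 0.48 (edgeR, adjusted p = 0.000921) and Cxcl13, a B cell attractant, by 4.11 ± 1.06 (adjusted p = 0.0184). In the Zbp1 cohort 9 were tested and Cxcl5 alone was called, by 2.81 ± 0.39 (edgeR, adjusted p = 0.000615). Cxcl5 was also the 1 called on each mutant background, by 2.94 ± 0.48 in Ripk1 D138N 5xFAD against Ripk1 D138N and 2.35 ± 0.38 in Zbp1 KO 5xFAD against Zbp1 KO (edgeR, adjusted p = 0.00275 and 0.00480). None was called between mutant 5xFAD and 5xFAD, with medians of -0.097 for Ripk1 D138N and 0.11 for Zbp1 KO. Cxcl5 averaged 8.04 ± 4.11 CPM in Ripk1 D138N 5xFAD, against 8.63 ± 4.10 CPM in 5xFAD (SD, n = 3 each).

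Of the chemokine receptors, 14 of 23 were tested in the Ripk1 cohort and 4 were called higher in 5xFAD than in WT. Among them were the microglial fractalkine receptor Cx3cr1 (1.48 ± 0.14), the atypical receptor Ccrl2 (2.17 ± 0.42) and Cxcr4 (1.02 ± 0.26), with edgeR adjusted p of 8.29e-06, 0.00403 and 0.0166. The Zbp1 cohort had 13 tested and Cx3cr1 alone called (1.72 ± 0.16, edgeR, adjusted p = 2.91e-05). No receptor was called between mutant 5xFAD and 5xFAD in either cohort. Ccr2, the receptor of CCL2 and CCL12, and Cxcr3, that of CXCL9 and CXCL10, are named here after their values were seen. Ccr2 averaged 0.675 ± 0.364 CPM in Ripk1 D138N 5xFAD and 0.240 ± 0.218 CPM in 5xFAD, and Cxcr3 0.430 ± 0.176 CPM in Ripk1 D138N 5xFAD and 0.233 ± 0.152 CPM in 5xFAD (SD, n = 3 each). Neither was called in any comparison in which it was tested. Of the 3 genes for ligand processing, Adam17 was called higher in 5xFAD than in WT in both cohorts (0.34 ± 0.10 and 0.71 ± 0.11, edgeR, adjusted p = 0.0284 and 0.00117).

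Of 21 interferon and NF-kB pathway genes that act upstream of chemokine transcription, 19 were tested in the Ripk1 cohort and 13 were called higher in 5xFAD than in WT. Those with the lowest p included Irf8 (2.34 ± 0.13), Irf7 (3.92 ± 0.27), Irf9 (1.67 ± 0.14), Stat2 (1.16 ± 0.10) and Irf1 (1.13 ± 0.13), with edgeR adjusted p of at most 5.47e-05. In Ripk1 D138N 5xFAD against 5xFAD 5 of 19 were called lower. Among them were Irf7 (-2.67 ± 0.25), Stat2 (-0.86 ± 0.10), Irf9 (-1.002 ± 0.14) and Irf1 (-0.79 ± 0.13), with edgeR adjusted p from 0.000383 to 0.0133. Irf7, which amplifies the interferon response, also had a called interaction (-2.59 ± 0.36, edgeR, adjusted p = 0.0404). Irf7 averaged 3.81 ± 0.769 CPM in Ripk1 D138N 5xFAD, against 24.3 ± 6.31 CPM in 5xFAD (SD, n = 3 each). In the Zbp1 cohort 5 of 18 were called higher in 5xFAD than in WT, Irf8, Irf9, Irf7 and Ifngr1 among them, and none was called in Zbp1 KO 5xFAD against 5xFAD, where the median was -0.35.

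Markers of cell types that a hippocampal sample can hold were read in the same fits. In 5xFAD against WT all 10 microglial and all 8 activated microglial genes were called higher in the Ripk1 cohort, and 9 of 10 and 8 of 8 in the Zbp1 cohort. T and NK lymphocyte markers were called higher for 4 of 7 tested in the Ripk1 cohort (Cd3g, Nkg7, Cd8a and Trac), where the 12 summed to 4.55 to 7.04 CPM in 5xFAD and 1.07 to 2.24 CPM in WT, and for 1 of 6 in the Zbp1 cohort (Cd8a), at 2.87 to 4.73 CPM in 5xFAD and 0.903 to 1.21 CPM in WT. Of the peripheral myeloid markers Ly6c2 alone of 7 tested was called higher in the Ripk1 cohort (2.90 ± 0.73, edgeR, adjusted p = 0.0164), and 0 of 4 in the Zbp1 cohort. In Ripk1 D138N 5xFAD against 5xFAD 0 of 10 microglial genes were called, with a median of -0.35, and the summed level was 805.8 to 980.5 CPM in Ripk1 D138N 5xFAD, against 1077 to 1146 CPM in 5xFAD. The 12 T and NK lymphocyte markers summed to 2.50 to 3.09 CPM in Ripk1 D138N 5xFAD, against 4.55 to 7.04 CPM in 5xFAD, with 0 of 7 tested called and none at 0 in either genotype. The 10 peripheral myeloid markers summed to 1.38 to 3.59 CPM in Ripk1 D138N 5xFAD, against 5.08 to 5.33 CPM in 5xFAD, with 0 of 7 tested called. The medians of those tested were -1.18 for the lymphocyte and -1.76 for the peripheral myeloid markers. For Zbp1 KO 5xFAD the microglial sum was 633.9 to 757.9 CPM, against 904.4 to 1562 CPM in 5xFAD, with a median of -0.89 and 0 of 10 called. Its lymphocyte sum was 2.42 to 2.98 CPM, against 2.87 to 4.73 CPM in 5xFAD, with 1 of 12 markers at 0 in each. Its peripheral myeloid sum was 1.37 to 2.31 CPM, against 0.802 to 2.21 CPM in 5xFAD, with 0 of 4 tested called. The medians here were -0.53 for the lymphocyte and 0.29 for the peripheral myeloid markers. Activated microglial genes summed to 2191 to 3021 CPM in Ripk1 D138N 5xFAD, against 2485 to 3153 CPM in 5xFAD, and to 1846 to 2132 CPM in Zbp1 KO 5xFAD, against 2401 to 4200 CPM in 5xFAD, with 0 of 8 called in each. Their medians were -0.13 for Ripk1 D138N 5xFAD and -1.03 for Zbp1 KO 5xFAD. Astrocyte markers were called higher in 5xFAD than in WT for 5 of 7 in the Ripk1 cohort and 3 of 7 in the Zbp1 cohort. None of the astrocyte, border macrophage, endothelial and mural, choroid plexus or neuron markers was called between mutant 5xFAD and 5xFAD in either cohort. The part of these cells in the chemokine levels was not tested.

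Zbp1 itself was at 0.725 to 1.24 CPM in Ripk1 D138N 5xFAD, against 3.77 to 7.42 CPM in 5xFAD, without overlap. The difference was -2.51 ± 0.34 (edgeR, adjusted p = 0.00537).

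The authors' deposited tables give fold changes of 5xFAD over the mutant 5xFAD, so that a positive value there means lower in the mutant. For Ripk1 D138N 5xFAD the authors' deposited table lists Cxcl10 at 2.24 (adjusted p = 7.86e-09), Cxcl9 at 2.72 (adjusted p = 0.000456) and Ccl12 at 2.44 (adjusted p = 0.000604). The same authors' deposited table lists Ccl2 at 2.86 with an adjusted p of 1, and Cxcl16 at 0.854 (adjusted p = 0.0536). For Zbp1 KO 5xFAD the authors' deposited table lists Cxcl10 at 1.56 (adjusted p = 0.0766) and Ccl6 at 1.26 (adjusted p = 0.00726).

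The genes most like each of the 9 chemokines tested in both cohorts (Ccl2 was not) over the 24 libraries were found by the root mean square difference of log2 CPM centred within each cohort, among 20680 genes. Cxcl10 was closest to Mx1, an antiviral GTPase (0.624), Oasl2 (0.694) and Phf11b (0.698). Ccl12 was closest to Iigp1, an interferon-inducible GTPase (0.691), F830016B08Rik (0.704) and BC023105 (0.723). Cxcl9 was closest to Milr1 (0.805), Nlrc5 (0.824) and Ifi27l2a (0.828), and Ccl5 to Bst2 (0.748), H2-K1 (0.757) and Serping1 (0.759). By the same measure Ccl6 was closest to Hpse (0.429), Fcgr2b (0.470) and the microglial receptor gene Trem2 (0.474). Ccl3 was closest to Cd200r4 (0.599), St14 (0.704) and Hcar2 (0.770), and Ccl4 to Cd52 (0.609), Ccl6 (0.683) and Gpr84 (0.687). Cxcl16 was closest to Havcr2 (0.415), Apobr (0.431) and Pik3ap1 (0.432), and Ccl9 to Cst3 (0.283), Rgs10 (0.288) and Psme2 (0.294). The measure is small for a gene that varies little, so its values do not rank the chemokines by how well they are matched. The root mean square of a chemokine's own centred log2 CPM ran from 0.584 (Ccl9) to 2.2 (Ccl3). These are descriptions over libraries that share cohort and genotype.

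Few chemokine reads were counted in the ZBP1 immunoprecipitates, and the input library labelled 5xFAD did not show the 5xFAD pattern of the 2 cohorts. The labelled 5xFAD over labelled WT ratio of input CPM ran from 0.429 (Ccl4) to 1.98 (Ccl9), and for 0 of 9 did its 95% interval lie above 1. Cxcl10 had 1.27 CPM in the input labelled 5xFAD and 1.68 CPM in that labelled WT. The 8 activated microglial genes, all called higher in 5xFAD in both cohorts, summed to 27.7 CPM in each of these inputs, a ratio of 1.0 with an interval of 0.838 to 1.2. Levels in the inputs were unlike those of the cohorts, but the 2 are not on 1 scale, so the sizes of the gaps below cannot be read. Input CPM are per total counts, of which repeats took 91.4% (labelled 5xFAD) and 91.8% (labelled WT). Cohort CPM are per counts in genes. In WT hippocampus the same 8 genes summed to 1190 to 1243 CPM (Ripk1 cohort) and 1285 to 1876 CPM (Zbp1 cohort). Cxcl9 was at 3.48 CPM in the input labelled WT, against at most 0.0964 CPM in any WT hippocampal library. What these low counts stand for was not tested, so the ratios cannot check the genotypes, which are given below as labelled. Of the 10, 9 are listed in that table, with 2 to 17 counts in the immunoprecipitate (IP) and 5 to 24 in the input of 5xFAD, and 3 to 13 in the IP and 9 to 31 in the input of WT. Repeat families took 91.0% to 92.4% of the counts of each library. The IP over input ratio of CPM ran from 0.231 (Ccl3) to 1.51 (Cxcl16) in 5xFAD and from 0.400 (Cxcl9) to 1.71 (Ccl9) in WT. Its median over the 9 was 0.867 in 5xFAD and 0.735 in WT. Over all gene entries with at least 20 counts in IP and input together it was 0.747 and 0.877. That threshold was not set on the 9, and some of them miss it, so the medians are not strictly alike. Cxcl9 in WT, with 8 counts in the IP and 31 in the input, was the 1 of 18 ratios whose 95% interval left out 1 (0.159 to 0.891). The share of all gene entries whose interval does so was not counted. With 1 library per group there is no test, and the intervals cover counting error only.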

How the data were processed

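Hippocampal libraries were grouped by sample title into 2 cohorts of 4 genotypes with 3 libraries each. For each cohort the authors deposited a matrix of raw counts by Ensembl gene ID, and for the immunoprecipitation another count matrix. Their tables of comparisons hold a log2 fold change and an adjusted p-value per gene, per the file headers. HISAT2, DESeq2 1.42.1 and edgeR 4.0.16 are named in the submitters' processing notes without roles, together with builds mm10 (GRCm38) and mm39 (GRCm39), so no gene coordinates are taken from the counts.

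R 4.3.3 with edgeR 4.0.16 fitted the 12 libraries of a cohort together (TMM, filterByExpr, 1 mean per genotype, quasi-likelihood test), and all 24 for differences between cohorts on 22565 genes. SE is the absolute log2 fold change over the square root of F. CPM use TMM-scaled library sizes. Symbols matched 55141 of 55487 IDs, and 16018 had no count. Alternatives were RLE size factors, no low-count filter, DESeq2 1.42.0, a replicate block, 2 genotypes only, Thy1 as covariate and leaving out each library. The fits were tested on simulated data. The labels do not tie libraries to separate animals, so p-values reflect library-to-library spread, which may be technical. Within genotypes every pair of libraries differed beyond counting noise, with 7.28 to 78.1 for chi-square over its degrees of freedom. Replicate numbers were not taken as pairs, since same-numbered libraries did not all deviate together.

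The 10 genes, the lists and the tests were chosen with earlier results of these data known. Named are all 10, up to 6 called genes per list and contrast in order of p, and the 3 genes most alike each member tested in both cohorts by log2 CPM (prior count 2). The lists are other chemokines, chemokine receptors, ligand processing, upstream regulators and cell type markers. Some genes that this rule names are not reported here.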

Additional observations from a re-analysis of the deposited data

How the results depend on the processing

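Across 115 fold changes and 1468 values under an alternative, 1406 stayed on their side of the threshold, 54 of them with a change of sign in a value that was not called, 27 lost a call, 35 gained one and 0 called values turned round. The 10 calls of 5xFAD against WT in the Ripk1 cohort held under each alternative, except that DESeq2 gave Ccl2 no adjusted p (9 called). Numbers of chemokines called moved in other comparisons, and the cause was not tested. Ripk1 D138N 5xFAD against 5xFAD called 2, 4 without the low-count filter, 4 by DESeq2, 0 with the Thy1 covariate and 0 to 2 with 1 library left out. Ripk1 D138N 5xFAD against Ripk1 D138N called 5, 6 without the filter and by DESeq2, 4 with only the 2 genotypes and 4 to 5 with 1 library left out. The Ripk1 interaction called 0, 2 without the filter, 2 by DESeq2 and 0 to 1 with 1 library left out. In the Zbp1 cohort, 5xFAD against WT called 5, 7 without the filter and by DESeq2, and 3 to 6 with 1 library left out. Zbp1 KO 5xFAD against 5xFAD called 0, 2 without the filter, 1 by DESeq2 and 0 to 1 with 1 library left out, and Zbp1 KO 5xFAD against Zbp1 KO called 4, 6 without the filter and by DESeq2, and 2 to 3 with 1 library left out. The difference of the 5xFAD effect between cohorts called 0, 1 without the filter, 1 by DESeq2 and 0 to 1 with 1 library left out. Over all genes, DESeq2 and the unfiltered fit called 276 and 387 in place of 78 for Ripk1 D138N 5xFAD against 5xFAD, 83 and 145 in place of 6 for the Ripk1 interaction, 1034 and 1030 in place of 665 for 5xFAD against WT in the Zbp1 cohort, 156 and 498 in place of 0 for Zbp1 KO 5xFAD against 5xFAD, 510 and 628 in place of 261 for Zbp1 KO 5xFAD against Zbp1 KO, and 27 and 188 in place of 0 for the difference between cohorts. For Ripk1 D138N 5xFAD against Ripk1 D138N, DESeq2 called 1211, the unfiltered fit 1030 and the fit of only the 2 genotypes 566, in place of 721. With only the 2 genotypes, Zbp1 KO 5xFAD against Zbp1 KO called 6 chemokines and 877 genes, and 5xFAD against WT in the Zbp1 cohort called 339 genes. With 1 library left out, the counts over all genes were 14 to 673 for Ripk1 D138N 5xFAD against 5xFAD, 438 to 741 for Ripk1 D138N 5xFAD against Ripk1 D138N, 1757 to 3293 (3449 with all) for 5xFAD against WT in the Ripk1 cohort, 413 to 1103 for the same in the Zbp1 cohort, 123 to 168 for Zbp1 KO 5xFAD against Zbp1 KO and 0 to 593 for the difference between cohorts. With 1 library left out they were 0 to 31 for the Ripk1 interaction and 0 to 82 for Zbp1 KO 5xFAD against 5xFAD. The immunoprecipitation ratios moved by less than their intervals when only gene entries were used.

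With the replicate number as a block, the numbers of chemokines called were 10, 2, 0 and 5 in the Ripk1 cohort and 0 for its interaction, and 5, 0, 0 and 5 in the Zbp1 cohort and 0 for its interaction, listed as 5xFAD over WT, mutant 5xFAD over 5xFAD, mutant over WT and mutant 5xFAD over mutant. The fifth in Zbp1 KO 5xFAD against Zbp1 KO was Ccl4 (adjusted p = 0.0368). Over all genes the block called 41 in place of 0 for Zbp1 KO 5xFAD against 5xFAD, 0 in place of 6 for the Ripk1 interaction and 331 in place of 261 for Zbp1 KO 5xFAD against Zbp1 KO. For the 4 comparisons of the Ripk1 cohort, in the order above, it called 3597, 67, 0 and 766 genes. In the Zbp1 cohort it called 772 genes for 5xFAD against WT, and 0 for Zbp1 KO against WT and for the interaction. Deviations of same-numbered libraries correlated by -0.218 to 0.243 in the Ripk1 cohort and by -0.111 to 0.402 in the Zbp1 cohort. Some such libraries thus deviated together and others did not, and the numbers were not taken as a pairing.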
